A study of Danio rerio with 46 samples.

Results

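Of 4 adult zebrafish ovaries from heat-exposed fish, 2 carried testis transcripts at high levels, and these 2, replicates 2 and 4 of their group, are set here against control testes and control ovaries. They are called the masculinized ovaries below, a name that refers to transcripts and not to histology, which was not analysed here. They were chosen by their own signals of amh, cyp11c1 and sycp3, so all their values are a description and carry no test. The groups were the 2 masculinized ovaries from fish kept at 36 °C, 10 testes from fish kept at 28 °C and 4 ovaries from fish kept at 28 °C, 16 of the 46 arrays of the series. The temperatures applied from 18 to 32 days post fertilization, after which all fish were reared at 28 °C, and gonads were taken at 90 days. Each array measured the bulk RNA of 1 gonad sample after whole-transcriptome amplification, and the series gives the samples as biological replicates. The sources used here name no strain and no slide, scan or extraction batch, so no batch was tested. Because each sample is bulk tissue, fewer cells of a type and less RNA per cell cannot be told apart. Nor can a gonad of 1 kind, a gonad with both ovary and testis tissue and a sample that joins tissue of both sexes be told apart from these values.

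Zebrafish have no strongly sex-determining chromosome in laboratory strains, and each gonad passes through an early stage with oocyte-like germ cells before it becomes an ovary or a testis. In the testis, Sertoli cells nurse the germ cells and secrete factors such as Amh, Leydig cells make androgens and Insl3, and spermatocytes pass through meiosis to spermatids that build a flagellum. In the ovary, follicle cells make estrogen through aromatase, and oocytes store maternal RNA and the zona pellucida proteins that form the egg coat. High temperature during the sensitive period is known to favour males in zebrafish.

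Values are the deposited signals on a log2 scale, where 1 unit is a 2-fold difference, for 31475 rows, each a gene or transcript. The signals ran from 3.76 to 15.89, and the upper quartile of the 16 arrays lay between 10.67 and 10.72. Across all rows, the masculinized ovaries correlated with each other with r = 0.941. Pairs of control testes had a median r of 0.954, with a range of 0.931 to 0.967, and pairs of control ovaries a median r of 0.952. Some control testes stood apart in transcripts of other tissues. Control testis 7 had an egg coat list mean of 10.84, while the other control testes lay between 8.72 and 9.57, and control testis 1 had a liver list mean of 10.53. Skeletal muscle transcripts varied more among control testes than any other list used here, with list means from 8.49 to 11.42.

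The sex contrast was tested between control testes and control ovaries with limma. At an adjusted p under 0.05, 9304 rows were higher in testis, which is 29.6% of all rows, and 9684 were lower, which is 30.8%. The rows that also differed by at least 2 on the log2 scale, or 4-fold, were taken as sex-biased. These were 4053 testis-raised rows (12.9% of all rows) and 3140 ovary-raised rows (9.98%). The masculinized ovaries took no part in this choice. The position of an array in such a row was set to 0 at the mean of the control ovaries and to 1 at the mean of the control testes.

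In the masculinized ovaries most testis transcripts read nearer to testis than to ovary level. Most ovary transcripts read below ovary level, and the egg coat transcripts read near ovary level. Over the testis-raised rows the median position was 0.85 in both masculinized ovaries, while single control testes had medians from 0.97 to 1.02. Over the ovary-raised rows the median position was 0.79 in masculinized ovary 2 and 0.67 in masculinized ovary 4, while single control testes ranged from 0.96 to 1.04. Neither masculinized ovary reached the range of the control testes in either set. The other heat ovaries, replicates 1 and 3, had medians of 0.02 and 0.05 in testis-raised rows, and of 0.01 and 0.00 in ovary-raised rows. On the linear scale the order of both sets turned round. There the mean of the medians of the masculinized ovaries was 0.62 in testis-raised and 0.91 in ovary-raised rows, against 0.85 and 0.73 on the log2 scale. As a share of signal, the median testis-raised row stood at 69.5% and 70.7% of the control testis mean in the masculinized ovaries. The median ovary-raised row stood at 20.3% and 25.9% of the control ovary mean.

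**Figure D1:**
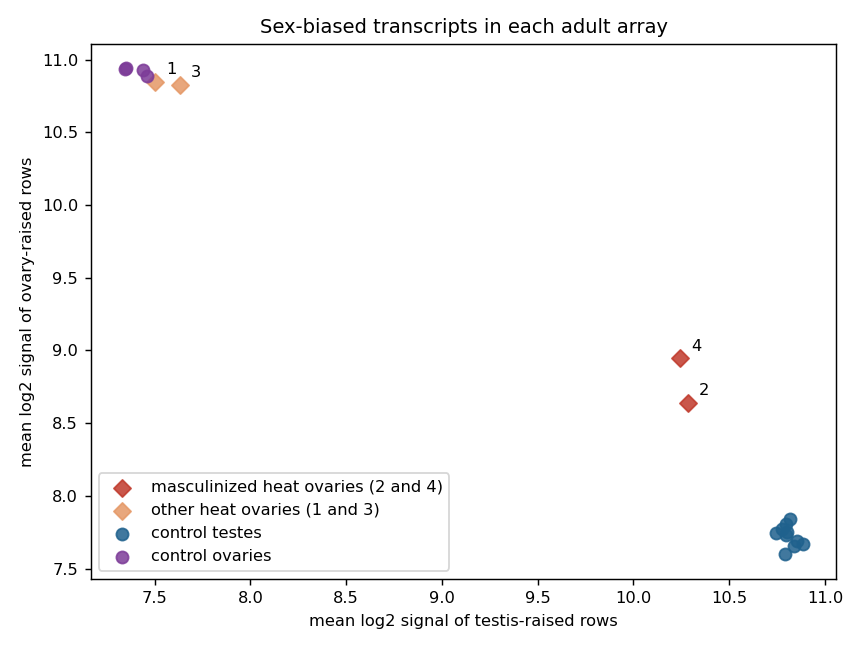
Each point is 1 array, placed by its mean log2 signal over the 4053 testis-raised rows (horizontal) and over the 3140 ovary-raised rows (vertical). The masculinized heat ovaries 2 and 4 lie at 10.28 and 10.24 on the horizontal axis, near the control testes, and at 8.64 and 8.95 on the vertical axis, above all control testes and below all ovaries.

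Row by row, the masculinized ovaries were compared with the range of each control group, from its lowest to its highest array. In 1712 testis-raised rows, or 42.2%, both masculinized ovaries lay within or beyond the control testis range, which is called at testis level here. In 886 rows, or 21.9%, both lay between the control ranges, and in 97 rows, or 2.39%, both were at ovary level. The other 1370 rows, or 33.8%, were split between classes. In the ovary-raised rows, 1146 (36.5%) were at testis level in both arrays, 1006 (32%) lay between and 77 (2.45%) were at ovary level, and 924 (29.4%) were split. The control ranges overlapped in 376 testis-raised and 134 ovary-raised rows, so that 12 and 13 rows count both as at testis level and at ovary level. The class shares depend most on the minimum difference that makes a row sex-biased. With a minimum of 4 on the log2 scale, 5.33% of ovary-raised rows were at testis level and 70.7% lay between. They depend also on asking both arrays at once: with masculinized ovary 2 alone, 57.7% of ovary-raised rows were at testis level. With either array alone, 36.7% of testis-raised rows lay between. Alone, masculinized ovaries 2 and 4 were at testis level in 58.3% and 59.1% of testis-raised rows and at ovary level in 6.09% and 5.43%. Single control testes, each set against the other testes, were at testis level in 79.4% to 94.5% of these rows and at ovary level in 0.987% to 2.29%. In ovary-raised rows single control testes were at testis level in 87.0% to 92.3%.

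**Figure D2:**
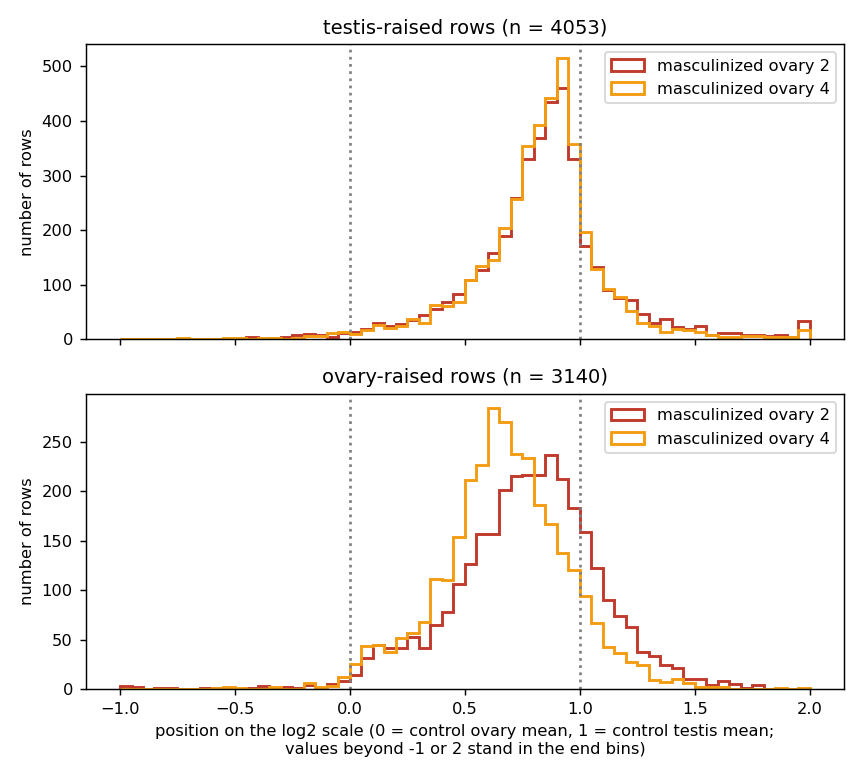
Number of rows (vertical) by position on the log2 scale (horizontal, 0 at the control ovary mean and 1 at the control testis mean) for each masculinized ovary, with testis-raised rows above and ovary-raised rows below. The testis-raised distributions of both arrays nearly coincide with medians of 0.85, and the ovary-raised distributions are set apart, with medians of 0.79 in ovary 2 and 0.67 in ovary 4.

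The rows that chose the arrays give the starting point. Amh, the Sertoli cell hormone that makes the Müllerian ducts regress in mammals, read 10.26 and 10.46 in the masculinized ovaries. Control testes ran from 10.20 to 11.67 with a median of 11.29, and control ovaries read 5.94, 6.64, 5.63 and 7.44. Both masculinized ovaries thus lay at the lower end of the testis range. Sycp3, a protein of the meiotic chromosome axis, read 11.46 and 12.19, below the lowest control testis at 12.30 and above the control ovaries at 8.50, 8.63, 7.56 and 6.48. Cyp11c1, the enzyme that makes 11-oxygenated androgens, read 11.65 and 12.29 in the masculinized ovaries, 12.17 to 13.01 in control testes and 6.54, 6.74, 6.35 and 6.76 in control ovaries. Only masculinized ovary 4 was within the testis range for this gene. In the other heat ovaries amh read 7.37 and 7.27, cyp11c1 7.54 and 7.29, and sycp3 7.94 and 8.79. These marker genes were not taken out of the gene lists used below, and list values without them are not given here.

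Sertoli cell transcripts were the testis-raised gonad list on which the masculinized ovaries differed most from each other. Of 28 list members found, 15 were higher and 2 lower in control testes than in control ovaries, and 11 were testis-raised. Their median position was 0.58 in masculinized ovary 2 and 0.86 in masculinized ovary 4, beside 0.85 in both over all testis-raised rows. Both arrays were at testis level in 4 of the 11, between in 2, at ovary level in 1 and split in 5, with igf3 counted at both levels. The marker amh, at testis level in both arrays, was not taken out, so these values rest partly on a gene that chose the arrays. Inhbb, an activin and inhibin subunit, read 10.47 and 11.41 in the masculinized ovaries, 10.10 to 11.44 in control testes and 7.45 to 8.22 in control ovaries. Cldn11b, a claudin, read 9.39 and 9.68, 9.06 to 10.01, and 6.76 to 7.84 in the same order. These members matched testis values in both arrays.

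Others were partial. Gsdf, a growth factor of the fish gonadal soma, read 11.02 and 12.20 in masculinized ovaries 2 and 4, with 12.05 to 13.18 in control testes and 8.60 to 8.98 in control ovaries. Cldn11a, the other cldn11 copy, read 12.22 and 13.30, with 12.99 to 14.02 in control testes and 10.80 to 11.83 in control ovaries. In both genes ovary 4 was within the testis range and ovary 2 below it. Dmrt1, a transcription factor of male development, read 7.67 and 8.10 in the masculinized ovaries, 8.27 to 9.07 in control testes and 6.02 to 6.29 in control ovaries, so both arrays lay between the groups. Sox8 (sox8b), a relative of Sox9, read 9.45 and 9.98, with 9.78 to 11.54 in control testes and 7.93 to 9.34 in control ovaries. Krt18 (krt18a.1), a keratin, read 13.48 and 13.59, close to the lowest control testis at 13.55.

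The largest shortfalls of the Sertoli list were in the receptor for follicle-stimulating hormone and in an insulin-like growth factor. Fshr read 6.02 in masculinized ovary 2 and 8.36 in masculinized ovary 4, with 8.13 to 10.27 in control testes and 7.36, 6.18, 7.38 and 6.15 in control ovaries. Ovary 2 was thus below every control gonad, while ovary 4 was within the testis range only through control testis 5, since the next read 8.41. Igf3, a gonadal growth factor of fish, read 7.37 and 7.75 in the masculinized ovaries and 6.47, 7.42, 7.16 and 7.89 in control ovaries. Control testes ran from 7.24 to 11.34 with a median of 9.63, so the control ranges overlapped and both masculinized ovaries stood near the lowest testis.

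**Figure D3:**
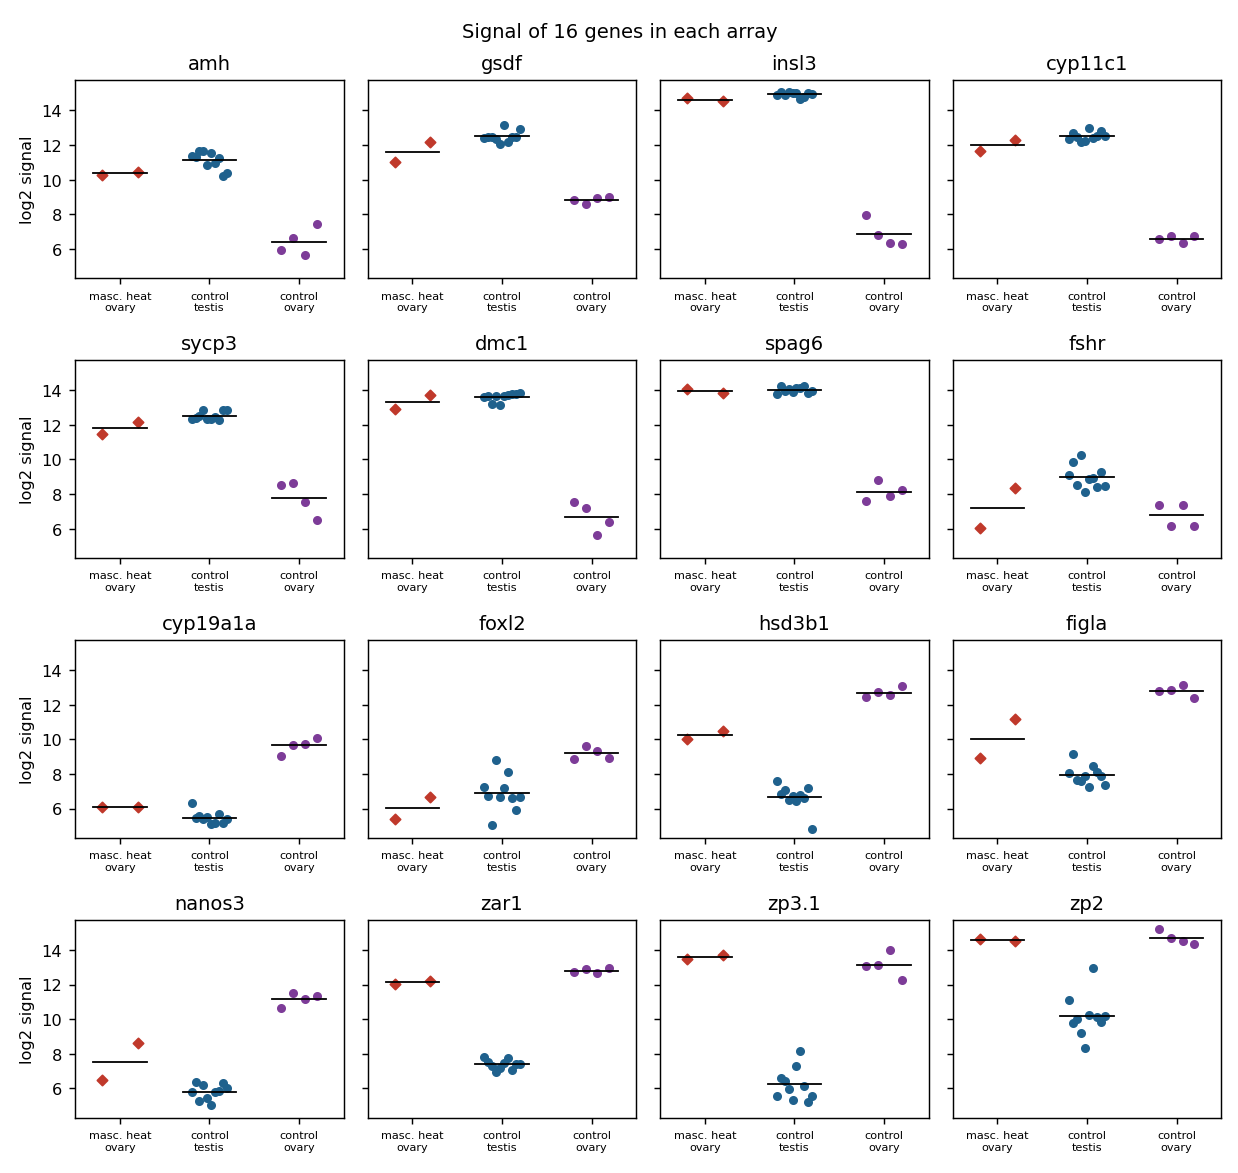
Log2 signal (vertical) of 16 genes in each array of the masculinized heat ovaries, control testes and control ovaries, with a line at each group's mean. The masculinized ovaries stand with the testes in insl3 and spag6 and with the ovaries in zp3.1 and zp2, and they differ from each other in fshr, figla and nanos3.

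Leydig cell and androgen transcripts stood near the level of the control testes, mostly at or just under the lower end of their range. Of 25 members found, 11 were higher and 8 lower in control testes, and 6 were testis-raised, with median positions of 0.90 and 0.92 in masculinized ovaries 2 and 4. Of these 6, 1 was at testis level in both arrays, 1 between and 4 split. The marker cyp11c1, which also chose the arrays, was not taken out here. Insl3, the Leydig cell peptide hormone, had the largest control difference of the members named here, 8.08 (adjusted p = 2.70e-13). It read 14.71 and 14.52 in the masculinized ovaries, 14.65 to 15.07 in control testes and 7.94, 6.82, 6.32 and 6.29 in control ovaries. Masculinized ovary 2 was within the testis range only through control testis 7, since the next testis read 14.76. Star, which carries cholesterol into mitochondria for steroid synthesis, read 13.10 and 13.23, just under the control testes at 13.25 to 14.08 and far above the control ovaries at 9.07 to 9.78. Srd5a1, a steroid 5-alpha reductase, read 8.0 and 7.58, within the control testes at 7.21 to 8.67. Hsd11b2, an enzyme of 11-ketotestosterone synthesis, read 11.52 and 10.66, with 11.19 to 12.38 in control testes and 7.30 to 8.97 in control ovaries. Ovary 4 was the one below the testis range there.

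The ovary-raised members of the same list differed among themselves. Their median position was 0.81 and 0.65, with 3 of 5 between the groups and 2 split. Hsd3b1, an enzyme of early steroid synthesis, read 10.00 and 10.47 in the masculinized ovaries, 4.83 to 7.58 in control testes and 12.43, 12.72, 12.53 and 13.05 in control ovaries. Scarb1, a receptor for high-density lipoprotein, read 12.62 and 12.72, with 9.58 to 10.81 in control testes and 13.46 to 14.09 in control ovaries. Both genes stayed more than 1 unit above the highest control testis in both arrays. Stard3, a cholesterol-binding protein of endosomes, read 8.70 and 8.79, just above the control testes at 7.94 to 8.57. Nr4a1, an orphan nuclear receptor, read 7.69 and 8.86, with 7.56 to 8.53 in control testes and 10.64 to 11.14 in control ovaries. Cyp17a1, needed for androgens and estrogens alike, did not pass the control test (adjusted p = 0.689) and read 11.53 and 11.61 in the masculinized ovaries, within the control testes at 11.42 to 12.98.

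Meiotic transcripts came nearer to testis level in masculinized ovary 4 than in masculinized ovary 2, and most testis-raised members lay below every control testis in both. Of 30 members found, 18 were higher and 6 lower in control testes, and the 12 testis-raised ones had median positions of 0.84 and 0.92. Both arrays were at testis level in 3, between in 7 and split in 2. The marker sycp3, which also chose the arrays and lay between in both, was not taken out here. In linear signal the median testis-raised member stood at 63.5% and 78.3% of the control testis mean. Over all testis-raised rows, 42.2% were at testis level and 21.9% between, and with a minimum difference of 4 these shares were 25.6% and 36.8%. The median control difference was 4.06 in the testis-raised meiotic members, against 2.99 over all testis-raised rows. Dmc1, the meiotic recombinase, read 12.89 and 13.71 in the masculinized ovaries, 13.16 to 13.84 in control testes and 5.64 to 7.52 in control ovaries. Mei4, needed for meiotic DNA breaks in mouse and yeast, read 13.32 and 13.87, inside the control testes at 13.15 to 14.16. Ovary 2 was inside only through control testis 5, since the next read 13.34. Smc1b, a subunit of meiotic cohesin, read 13.90 and 14.05 against 14.05 to 14.38 in control testes and 9.67 to 10.03 in control ovaries. The cohesin gene zgc:136888 (rec8b) read 7.94 and 9.10, inside the control testes at 7.51 to 9.33. Hfm1, a helicase of crossover formation, read 10.12 and 10.43, below the control testes at 10.64 to 11.31 and above the control ovaries at 6.69 to 7.64. The row zgc:111992 (terb2), which ties telomeres to the nuclear envelope in mouse meiosis, had the lowest position of the testis-raised members in masculinized ovary 2, 0.54. It read 10.45 there and 11.62 in masculinized ovary 4. Control testes read 11.72 to 12.27 there and control ovaries 8.34 to 9.15.

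Transcripts of spermatids and of the sperm flagellum had median log2 positions near 0.9 in both masculinized ovaries. A smaller share of them than of all testis-raised rows was at testis level, but their control differences were also larger. Of 61 members of the spermatid and sperm list found, 49 were higher and 4 lower in control testes. The 44 testis-raised members had median positions of 0.90 and 0.91, and in linear signal their median was 72.5% and 76.2% of the control testis mean. Both arrays were at testis level in 13, between in 21, split in 10 and at ovary level in 0. The axoneme and cilia list, with 70 members found, had 66 higher and 0 lower in control testes. Its 47 testis-raised members had median positions of 0.92 and 0.90, with 8 at testis level, 26 between, 13 split and 0 at ovary level. The share at testis level over all testis-raised rows was 42.2%, and their median linear signal was 69.5% and 70.7% of the control testis mean. Positions of testis-raised rows also rose with signal. The median was 0.86 in both arrays for control testis signals from 11 to 13, and 0.92 and 0.91 from 13 upward. With a minimum difference of 4, the mean median position was 0.89 over all testis-raised rows, 0.93 for sperm and 0.946 for axoneme members. The share at testis level over all testis-raised rows was 25.6% at that minimum. From a signal of 13 upward, 199 of 678 testis-raised rows were at testis level. The median control difference was 5.13 in sperm and 4.34 in axoneme members, against 2.99 over all testis-raised rows. List shares among rows of like difference are not given here.

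Spag6, a protein of the central pair of the flagellum, read 14.09 and 13.86 in the masculinized ovaries, 13.79 to 14.24 in control testes and 7.63 to 8.80 in control ovaries. Rtdr1 (rsph14), a radial spoke protein, read 14.50 and 14.70, inside the control testes at 14.45 to 14.77. Nme5, an axonemal protein of the nucleoside diphosphate kinase family, read 14.66 and 14.93, inside 14.50 to 15.15. Odf3b (cimap1b), of the outer dense fibre family, read 11.91 and 11.81, inside 10.49 to 12.25. The flagellar microtubule genes ribc1, with 14.04 and 14.17, and tuba7l, with 14.95 and 14.96, were inside the testis ranges of 13.82 to 14.51 and 14.81 to 15.09. The row si:ch211-215c18.4 (cfap77), another axonemal gene, read 14.39 in both arrays, and dynlt1 (dynlt1b), a dynein light chain, 14.09 and 14.19. All 8 of these members had positions of 0.95 or above in both arrays. In cfap77 the testis range reached both masculinized ovaries through 1 testis, and the next read 14.40. The same held for ovary 4 in odf3b and for ovary 2 in nme5, whose next testes read 11.83 and 14.73.

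The shortfalls at the other end of these lists were partial. Tekt2, a tektin of the flagellar microtubules, read 8.43 and 8.38 in the masculinized ovaries, 8.86 to 10.07 in control testes and 5.35 to 5.90 in control ovaries. Tekt3, its relative, read 9.54 and 10.09, with 9.74 to 11.52 in control testes. Efcab1 (clxn), the dynein-binding calaxin, read 14.32 and 14.38, below 14.47 to 14.96. Spag1b, a dynein assembly factor, read 11.62 and 12.35, with 11.89 to 12.72 in control testes. In the axoneme list the lowest mean positions were in mdh1b, with 8.06 and 8.65 below a testis range of 8.89 to 10.24, and in rabl5 (ift22), with 11.24 and 11.48 below 11.99 to 12.90. Lrrc6 (dnaaf11), a dynein assembly factor, read 12.12 and 12.15 below 12.58 to 13.69. Dnali1, a dynein light intermediate chain, read 6.96 and 8.10 below 8.18 to 9.17.

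**Figure D4:**
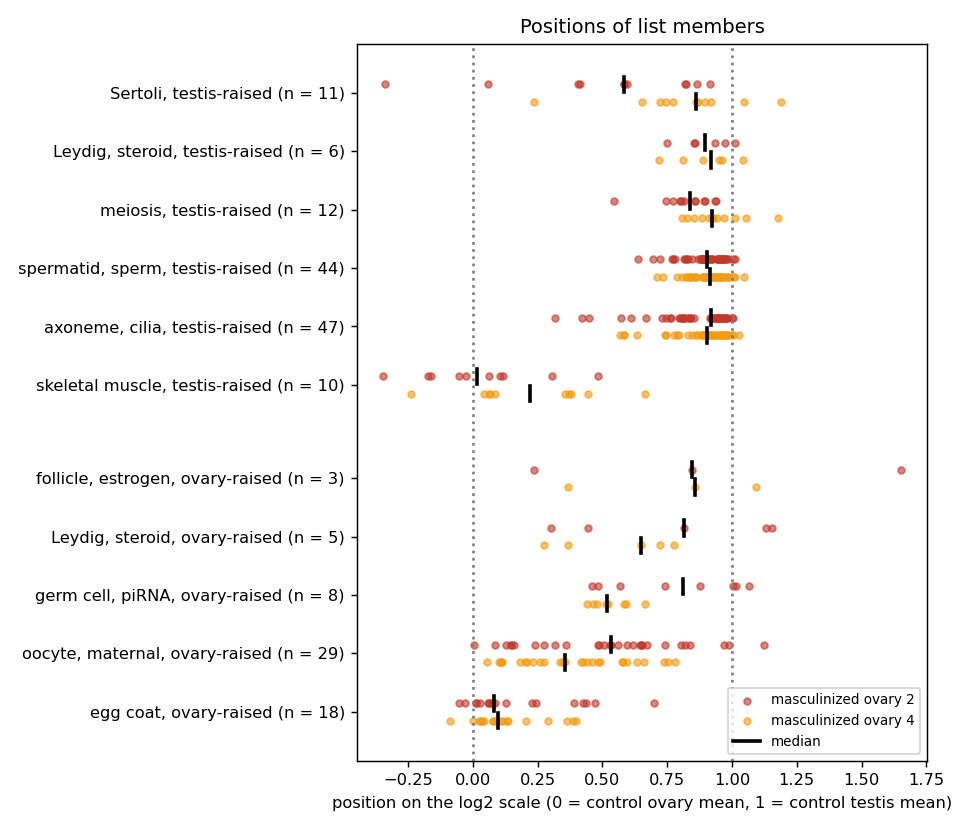
Position on the log2 scale (horizontal, 0 at the control ovary mean and 1 at the control testis mean) of each sex-biased list member in masculinized ovaries 2 and 4, with a bar at each median. Sperm and axoneme members gather near 0.9, egg coat members near 0.1, and germ cell members near 0.81 in ovary 2 and 0.52 in ovary 4.

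Across all testis-raised rows with a gene symbol, the 10 with the largest control difference among those at testis level again held flagellar genes. Fam154b (saxo2), a microtubule-binding protein, read 15.28 and 15.10 in the masculinized ovaries, 14.78 to 15.28 in control testes and 5.98 to 9.25 in control ovaries. Ccdc164 (drc1) and ccdc65, both of the nexin-dynein regulatory complex, read 13.56 and 13.58, and 13.17 and 12.995. Their control testis ranges were 13.53 to 14.34 and 12.91 to 14.03. Zte38 read 14.54 and 14.56, and zte25 (agbl2), which trims tubulin tails, read 11.45 and 11.38. Ak8, an adenylate kinase, read 12.33 and 12.48, the protease gene htra3a 12.43 and 12.47, and the channel gene trpc1 12.99 and 13.17. Fam19a2 and the lipocalin gene lcn15 completed the 10, with 14.08 and 13.85, and 12.75 and 12.95. In ccdc164, ccdc65 and zte25 the testis range reached both masculinized ovaries through 1 testis, and the next read 13.70, 13.32 and 11.67. The same held for ovary 4 in fam19a2 and for ovary 2 in lcn15, whose next testes read 13.90 and 12.94. All 10 control ovary means lay at least 6.22 units below those of the control testes.

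The testis-raised rows that stayed at ovary level were led by skeletal muscle genes. Of the 10 with the largest control difference, mylpfa, tpma, ckma, tnni2b.2, atp2a1l, ttnb and pgam2 encode proteins of muscle contraction or muscle energy supply. Mylpfa, a myosin light chain, read 6.17 and 6.90 in the masculinized ovaries, 8.14 to 14.63 in control testes and 6.60, 6.27, 5.38 and 7.73 in control ovaries. In all the other muscle genes named, control testis 10 itself read below the highest control ovary, so the control ranges overlapped. In tpma it read 7.07 against 7.70. Of 20 skeletal muscle list members found, 10 were testis-raised, with median positions of 0.02 and 0.22. Of these, 5 were at ovary level, 3 between and 2 split. The list mean was 7.83 and 8.37 in the masculinized ovaries, 8.49 to 11.42 in control testes and 7.38 to 7.75 in control ovaries. The remaining 3 of the 10 rows were me1, rtn4r and kcnt1. Kcnt1, a sodium-activated potassium channel, read 8.21 and 8.43, with 9.08 to 10.57 in control testes and 6.20 to 8.46 in control ovaries. Rtn4r, a receptor of the nervous system, read 8.40 and 7.55, with 8.97 to 10.69 and 5.82 to 8.41. In kcnt1 the ovary range reached both masculinized ovaries only through control ovary 3, and the next read 7.22. The same held for masculinized ovary 2 in rtn4r and for masculinized ovary 4 in mylpfa, whose next control ovaries read 8.20 and 6.60. Me1, malic enzyme, read 11.68 and 9.51, with 11.76 to 13.19 in control testes, and control ovaries were divided at 12.65, 11.78, 5.25 and 5.85.

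The egg coat transcripts remained near ovary level in both masculinized ovaries. Of 19 zona pellucida rows found, all 19 were lower in control testes than in control ovaries and 18 were ovary-raised. Their median position was 0.08 and 0.10, beside 0.79 and 0.67 over all ovary-raised rows. In linear signal the median member stood at 72.5% and 72.3% of the control ovary mean. The list mean was 13.30 and 13.53, below the control ovaries at 13.93 to 14.29 and the other heat ovaries at 14.10 and 14.14. Both arrays were at ovary level in 5, between in 10 and split in 3, with 0 at testis level. Some zona pellucida genes have close copies, and whether a row also carries signal of a copy was not tested.

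Zp3.1 read 13.47 and 13.72 in the masculinized ovaries, 5.22 to 8.18 in control testes and 13.05, 13.13, 14.01 and 12.29 in control ovaries. Zp2 read 14.65 and 14.54, with 8.33 to 12.96 in control testes, whose highest array was testis 7, and 15.23, 14.70, 14.54 and 14.33 in control ovaries. Zpcx read 14.36 and 14.44 and zp2.5 14.43 and 13.93, inside the control ovaries at 14.34 to 14.89 and 13.86 to 14.75. The row si:ch211-14a17.7 (zp3f.1) read 13.87 and 13.82, inside 13.79 to 14.01. In zpcx and zp3f.1 the range reached both masculinized ovaries through 1 control ovary, and the next read 14.80 and 13.93. The row zgc:171779 (zp3e) read 14.80 in both arrays, just under the control ovaries at 14.84 to 15.15. These rows lay above every control testis.

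A smaller set of egg coat rows was lower. The row zgc:66432 (zp3d.1) read 12.30 and 12.56 in the masculinized ovaries, 9.02 to 10.09 in control testes and 14.41 to 14.80 in control ovaries. The row si:ch211-14a17.6 (zp3f.2), the neighbour in name of zp3f.1, read 10.73 and 11.39 against 12.83 to 13.49 in control ovaries. The row zgc:66449 (zpd) read 10.94 and 12.05 against 13.36 to 13.64, and zp2l1 10.20 and 10.44 against 11.63 to 11.92. All 4 were still above the highest control testis.

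The position of an ovary-raised row moved with its signal in control ovaries, so the egg coat rows were set beside rows as bright. In the 478 ovary-raised rows with a control ovary signal under 9, the median position was 0.89 and 0.85. In the 1199 rows from 9 to 11 it was 0.87 and 0.74, and in the 1025 rows from 11 to 13 it was 0.76 and 0.62. In the 438 rows from 13 upward it was 0.43 and 0.35, which is 33.2% and 43.8% of the control ovary mean in linear signal. The egg coat members, at 72.5% and 72.3%, lay above this as well. Signals near the top of the scale, whose highest value was 15.89, can understate a difference.

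**Figure D5:**
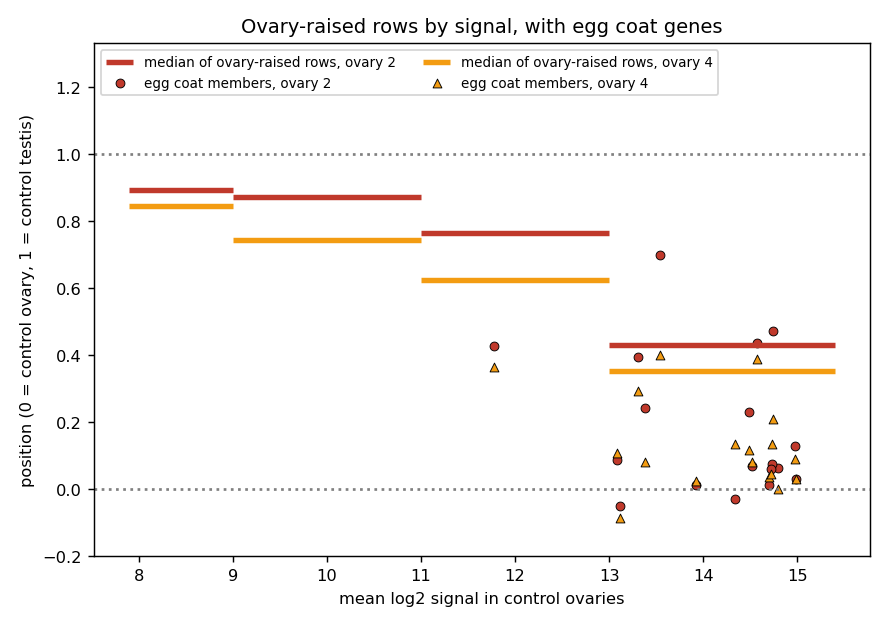
Position in the masculinized ovaries (vertical) against mean log2 signal in control ovaries (horizontal) for the 18 ovary-raised egg coat members, with lines at the median of all ovary-raised rows in 4 bins of signal whose outer bins are open. In bins from dim to bright the medians are 0.89, 0.87, 0.76 and 0.43 in ovary 2 and 0.85, 0.74, 0.62 and 0.35 in ovary 4, and most egg coat members lie below the line of their bin.

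By log2 position, other oocyte transcripts lay between the egg coat and the ovary-raised rows at large. In linear signal this order did not hold in ovary 2. There the median ovary-raised oocyte member stood at 15.7% of the control ovary mean in ovary 2 and 31.4% in ovary 4. Over all ovary-raised rows it was 20.3% and 25.9%. The median control difference was also larger in the oocyte members, -4.77 against -2.82. With a minimum difference of 4, the mean median position was 0.422 in oocyte members and 0.485 over all ovary-raised rows, so the 2 lay closer together. Of 55 oocyte and maternal list members found, 4 were higher and 43 lower in control testes than in control ovaries, and 29 were ovary-raised, with median positions of 0.53 and 0.36. Both arrays were at testis level in 3, between in 19, split in 7 and at ovary level in 0. Cldnd, a claudin of eggs, read 14.51 and 14.96 in the masculinized ovaries, 7.76 to 11.65 in control testes and 15.08 to 15.43 in control ovaries. H1m, the linker histone of germ cells and eggs, read 14.17 and 13.21, with 7.74 to 11.31 in control testes and 13.91 to 14.59 in control ovaries. Zar1, needed for oogenesis in zebrafish, read 12.01 and 12.22, with 6.95 to 7.80 in control testes and 12.65 to 12.96 in control ovaries. The egg coat row zp3 of this list read 12.62 and 12.52, just below 12.82 to 13.33. These 4 stayed closest to the ovary.

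The growth factors and transcription factors of oocytes were lower and differed between the masculinized ovaries. Bmp15, secreted by oocytes, read 10.12 and 11.02 in the masculinized ovaries, 8.17 to 8.78 in control testes and 13.01 to 13.39 in control ovaries. Gdf9, its partner, read 7.64 and 9.44, with 6.70 to 9.25 in control testes and 10.98 to 12.12 in control ovaries. Figla, which switches on egg coat genes in mouse oocytes, read 8.90 in ovary 2 and 11.17 in ovary 4, with 7.25 to 9.13 in control testes and 12.38 to 13.14 in control ovaries. For gdf9 and figla, ovary 2 was within the testis range and ovary 4 above it. Igf2bp3, an RNA-binding protein, read 8.0 and 7.84, within the control testes at 5.80 to 8.05 only through control testis 4, since the next read 7.76. Sybu, a maternal factor of the zebrafish body axis, read 6.29 and 6.97, with 5.39 to 6.76 in control testes and 7.94 to 9.61 in control ovaries.

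Germ cell and piRNA pathway genes, which protect germ cells from transposons, gave the widest gap between the masculinized ovaries among the ovary-raised gonad lists with 3 or more such members. Of 35 members found, 5 were higher in control testes and 18 in control ovaries, and 8 were ovary-raised. Their median position was 0.81 in ovary 2 and 0.52 in ovary 4, with 5 between and 3 split. Nanos3, needed to maintain germ cells, read 6.48 and 8.61 in the masculinized ovaries, 5.03 to 6.39 in control testes and 10.63 to 11.50 in control ovaries. Fkbp6 read 7.26 and 8.75, with 6.74 to 8.11 in control testes and 10.27 to 10.58 in control ovaries, and gtsf1, a piRNA pathway protein, 9.69 and 10.94, with 8.82 to 10.29 and 12.75 to 13.36. Sall4, a transcription factor of stem cells, read 6.65 and 7.79, with 6.14 to 7.17 and 8.84 to 9.90. For these 3, ovary 2 was at testis level and ovary 4 stood near the middle. The same held for the 2 ovary-raised members of the meiosis list. Zorba (cpeb1b), which controls translation of stored RNA, read 6.60 and 8.56, and the cyclin gene ccna1 read 9.67 and 10.77. Their control testes reached 6.98 and 10.13, and their control ovaries started at 9.87 and 12.15.

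In the remaining members named from the germ cell list the masculinized ovaries were alike. Ca15b, a carbonic anhydrase, read 10.72 and 10.99, with 6.53 to 8.23 in control testes and 13.20 to 14.32 in control ovaries. Tdrkh, a Tudor protein of the piRNA pathway, read 9.02 and 9.55, with 6.22 to 7.63 and 11.52 to 12.19. Pou5f1 (pou5f3) read 7.54 and 8.28, with 5.34 to 7.17 and 10.67 to 11.44. Lin28a (lin28ab), which binds let-7 precursors, read 8.35 and 8.17, with 5.87 to 7.73 and 8.71 to 11.14. Vasa (ddx4), a helicase of germ cells of both sexes, did not pass the control test (adjusted p = 0.103). It read 13.24 and 13.69 in the masculinized ovaries, 13.32 to 13.81 in control testes and 13.42, 13.48, 13.38 and 12.78 in control ovaries.

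Of the ovary-raised follicle and estrogen list members, cyp19a1a and foxl2 were at testis level in both arrays, while vldlr lay between the control groups. Cyp19a1a, the gonadal aromatase that makes estrogen, read 6.11 and 6.06 in the masculinized ovaries, 5.08 to 6.30 in control testes and 9.05, 9.70, 9.73 and 10.10 in control ovaries. Its highest control testis was testis 1, and without it both masculinized ovaries would stand above the next at 5.68. Foxl2 (foxl2a), a transcription factor that maintains ovarian fate, read 5.41 and 6.68, with 5.05 to 8.81 in control testes and 8.86 to 9.63 in control ovaries. Of 46 follicle and estrogen list members found, 17 were higher in control testes and 9 in control ovaries. The 3 ovary-raised members were cyp19a1a, foxl2 and vldlr, a lipoprotein receptor, which remained at 8.84 and 8.42, with 5.81 to 6.80 in control testes and 9.09 to 9.95 in control ovaries. The 7 testis-raised members had median positions of 0.68 and 0.72. Fstb, a follistatin that binds activin, read 9.20 and 10.39, with 9.45 to 11.04 in control testes, and inhbaa 9.71 and 10.43, with 9.48 to 12.07. Rspo2, a Wnt pathway enhancer, read 7.23 and 6.96, with 6.92 to 9.50, and wnt4b 6.91 and 5.82, with 6.16 to 9.71. In rspo2 the testis range reached both masculinized ovaries through control testis 5, and the next read 7.67. In inhbaa it reached ovary 2 through control testis 2, and the next read 9.98.

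Among all ovary-raised rows with a symbol, sox9b had the largest control difference of those at testis level. It is the Sox9 copy expressed in the zebrafish ovary. It read 7.95 and 8.02 in the masculinized ovaries, 4.55 to 8.52 in control testes with a median of 5.33, and 11.67, 12.51, 10.58 and 11.53 in control ovaries. The top of the testis range was control testis 1, and the next testis read 6.12, so without that array sox9b would lie between the groups. The same holds for inf2, a formin, with 6.57 and 7.03, whose next testis read 6.52. In igf2bp3, rbp7a and ubn1 the range likewise reached the masculinized ovaries through 1 testis, and the next testes read 7.76, 6.23 and 8.06. Sox9a, the other copy, was not sex-biased (adjusted p = 0.11), with 5.49 and 6.05 in the masculinized ovaries. The other leading rows at testis level were slc45a3, rbp7a, igf2bp3, ubn1, slc1a8a, uncx4.1, tnfaip8 (tnfaip8l1) and cyp19a1a. Slc1a8a, of the glutamate transporter family, read 5.80 and 5.47, with 5.02 to 6.23 in control testes and 9.74, 9.94, 9.83 and 9.87 in control ovaries. Rbp7a, a retinoid-binding protein, read 6.84 and 6.64, with 4.82 to 6.92 and 9.15 to 10.79. Uncx4.1, a homeobox gene, read 6.52 and 6.59, with 5.57 to 7.0 and 10.33 to 10.86.

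Among the leading rows with a symbol that remained at ovary level, zp3.1, zpcx, zp2 and zp2.5 encode egg coat proteins. Crp2 read 11.76 and 12.20 in the masculinized ovaries, 8.57 to 9.81 in control testes and 11.52, 14.79, 14.96 and 12.08 in control ovaries. Cyp1a, a detoxifying enzyme under the aryl hydrocarbon receptor, read 13.99 and 10.51, with 5.33 to 10.25 in control testes and 10.48 to 11.16 in control ovaries. Ovary 2 was thus above every control gonad. Kif3cb, a kinesin subunit, read 10.93 and 11.73, with 8.01 to 9.15 in control testes and 13.11, 13.16, 13.71 and 10.77 in control ovaries. Mmp13a, a collagenase, read 12.25 and 10.54, with 8.10, 12.26, 11.09 and 14.13 in control ovaries. Frmd5 read 7.43 and 7.39, with 10.04, 10.06, 5.83 and 10.85. In zpcx, kif3cb and frmd5 only 1 low control ovary brought the ovary range down to both masculinized values. The same holds for masculinized ovary 2 in crp2. It holds for masculinized ovary 4 in mmp13a, cyp1a, zp2 and zp2.5.

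Transcripts of blood, pancreas, liver and connective tissue were also measured, because ovary and testis samples can differ in them. The erythrocyte list mean was 11.10 and 10.56 in the masculinized ovaries, 9.43 to 10.58 in control testes and 8.23 to 8.67 in control ovaries. The 6 testis-raised members of its 16 found had median positions of 1.30 and 1.16, and all 6 were at testis level. The leukocyte list mean was 9.35 and 8.69, with 8.31 to 9.03 in control testes and 7.76 to 8.49 in control ovaries. The intestine and pancreas list mean was 10.20 and 10.71, with 9.01 to 11.36 and 7.79 to 9.56. Its 8 testis-raised members of 19 found were all at testis level. The liver list mean was 9.28 and 9.38, with 8.37 to 10.53 and 8.04 to 9.29. The smooth muscle and stroma list mean was 9.91 and 10.46, with 9.69 to 11.07 and 8.66 to 9.0. In these 5 lists the masculinized ovaries were within or above the control testes, in contrast to skeletal muscle. The part of these tissues in the sex-biased rows was not tested.

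Few transcripts left the span of the control gonads in both masculinized ovaries. In 7 rows, which is 0.0222% of all rows, both arrays were at least 1 unit above the highest of the 14 control gonads, and in 2 rows, 0.00635%, at least 1 unit below the lowest. Of the 7, glipr1 has a plain gene symbol and si:dkeyp-85e10.2 a current one, nuggc.2, and the others have clone or locus names. With the 10 heat testes added to the controls, 1 row remained above. The row with the largest margin, loc555549, read 13.26 and 13.39 in the masculinized ovaries but 14.43 and 14.36 in the other heat ovaries, and loc100536038 was also higher in those. Without control testis 5 the first count was 39, and with 1 masculinized ovary alone it was 487 for ovary 2 and 41 for ovary 4. Glipr1 read 11.23 and 10.71 in the masculinized ovaries, 7.79 to 9.22 in control testes and 6.26 to 7.55 in control ovaries. The other 9 symbols with the largest margin above were slc20a1a, alox5ap, dok2, fabp10b, plek, tnfaip8l2a, selp, creg1 and alas2. Alox5ap, needed for leukotriene synthesis, read 8.94 and 7.20, with 5.39 to 6.36 in control testes and 5.29 to 5.84 in control ovaries. Plek, the pleckstrin of platelets and leukocytes, read 10.56 and 8.75, with 6.14 to 7.98 and 6.39 to 7.67. Alas2, which starts heme synthesis in red cells, read 8.29 and 8.61, with 6.16 to 7.63 and 5.87 to 6.22. The erythrocyte and leukocyte list means given above, like alox5ap and plek but unlike alas2, were highest in masculinized ovary 2. The part of blood cells in these rows was not tested. Fabp10b, a fatty acid-binding protein, read 13.57 and 13.68, with 8.40 to 12.75 in control testes and 7.46 to 8.80 in control ovaries.

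Below all control gonads, mcu had the largest margin among symbols. This subunit of the mitochondrial calcium uniporter read 9.53 and 9.82 in the masculinized ovaries, 10.86 to 11.32 in control testes and 11.40, 11.40, 10.66 and 11.18 in control ovaries. The other heat ovaries read 11.46 and 11.63. Raver1, an RNA-binding protein, read 9.41 and 9.74, with 10.26 to 10.85 in control testes and 11.66 to 12.71 in control ovaries. The remaining 8 symbols, igsf9, stox1, mob1bb, cttnbp2, ep300b, taar18c, ptprma and stk38a, had smaller margins.

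The masculinized ovaries also differed from each other. In testis-raised rows the position was higher in ovary 2 in 50.4%, while in ovary-raised rows it was higher, and so nearer to testis, in 68.5%. The largest difference in either direction among rows with a gene symbol was in slc2a9l1, of the glucose transporter family, with 14.52 in ovary 2 and 6.05 in ovary 4. Control testes read 4.81 to 8.13 and control ovaries 5.39 to 6.02. Ovary 2 was also far above ovary 4 and all control gonads in mfsd4b (13.53 and 5.54), muc13b (12.57 and 5.43), kcnn2 (12.67 and 5.56) and pah (13.21 and 6.15). The same was true of pdzk1 (14.27 and 7.50), sult1st4 (12.70 and 5.98) and the organic anion transporter genes slco1f4 (12.19 and 5.71), slco1f2 (12.57 and 6.10) and slco1f1 (11.13 and 4.67). Transporters, a brush border scaffold (pdzk1) and metabolic enzymes make up most of these 10.

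In the other direction, psmb9b, an immunoproteasome subunit, read 5.34 in ovary 2 and 13.01 in ovary 4. Control testes ran from 5.25 to 13.27 and control ovaries read 6.06, 11.16, 5.11 and 11.72, so both levels occurred in control gonads of either sex. Psmb8f, of the same complex, read 4.93 and 10.37, with 4.56 to 11.34 in control testes and 5.93, 8.67, 5.81 and 9.51 in control ovaries. Ccl1 (ccl27a), a chemokine, read 6.15 and 11.66, with 6.96 to 12.27 in control testes and 6.05 to 7.32 in control ovaries. Tshr, the thyrotropin receptor, read 5.39 and 9.98, with 5.83 to 10.95 and 5.40 to 6.84. Dnmt4 (dnmt3bb.1), a DNA methyltransferase, read 6.91 and 10.90, with 7.62 to 11.37 and 8.72 to 12.49. Dnase1, adra2b, lum, gabra3 and itln1 completed the 10. For adra2b and itln1, ovary 4 also exceeded the highest control testis, with 9.65 against 9.17 and 12.99 against 12.43.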

How the data were processed

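RNA of adult gonads was measured on 1-colour NimbleGen arrays after whole-transcriptome amplification, per the labels' protocols. The deposited values are log2 signals. Per the submitters' processing notes the method was RMA, which subtracts background, equalizes the arrays by quantiles and merges probes into rows. The sources used here name neither its version, nor the annotation, nor which arrays were processed as 1 set, and the log base was inferred from the span of the values. Quantile normalization forces arrays onto 1 distribution and can hide a shift of most genes.

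The 10 control testes and 4 control ovaries were compared with limma 3.58.1 (R 4.3.3; lmFit and eBayes, two-sided) over all 31475 rows without a filter, with Benjamini-Hochberg adjustment, tested first on simulated data. P-values printed are from this fit. Sex-biased rows had an adjusted p under 0.05 and a difference of at least 2. The masculinized ovaries, chosen by their own readout, were described with no test, using Python 3.11.15 and pandas 2.3.3. Labels gave the groups, and the number of arrays limits the precision.

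The arrays, the 18 gene lists (603 of 780 entries found) and the tests were chosen with earlier results of these data known. Named genes were the 3 markers, the 4 highest and 4 lowest sex-biased members of each gonad list by mean position, the 10 leading symbols of each class, of rows beyond the controls and of differences between the arrays, and a panel of sex genes. The row of nobox is not analysed here, and 2 other genes of the rule are not reported here. Current symbols in brackets come from a RefSeq gene table, in which 3182 row names were an older name of 1 gene. No sequences were printed.

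Replicate numbers shared by 4 control testes and ovaries did not pair them, since their deviations correlated between -0.02 and 0.03. Alternatives were other fits, filters and scalings, heat testes as testis reference, other thresholds and ranges, linear positions and leaving out each array.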

Additional observations from a re-analysis of the deposited data

Results flagged for a closer look

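Within the control testes and within the control ovaries, the highest and the lowest array were set against the others by Dixon's test, for the genes named here and the list means. The heat ovaries were left out, since 2 of them were chosen by readout. Of 344 groups tested, 30 were flagged. Chance flags about 1 in 20 groups of unchosen rows, and these genes were partly chosen on the control values, so the share is not set against that rate. Values are log2 signals.

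Among the control testes, testis 1 was high in cyp19a1a (6.30), inf2 (8.76), pah (9.74), slc2a9l1 (8.13), sox9b (8.52) and the liver list mean (10.53). Testis 7 was high in cldnd (11.65), zgc:171779 (11.43) and the egg coat list mean (10.84). Testis 5 was low in spag1b (11.89) and the sperm list mean (11.75) and high in lum (11.86). Testis 10 was low in hsd3b1 (4.83) and tnni2b.2 (9.19), testis 2 low in odf3b (10.49), and testis 4 low in si:ch211-215c18.4 (14.14) and high in the Leydig list mean (10.07).

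Among the control ovaries, ovary 1 stood apart in ccl1 (7.32), fam19a2 (8.27), sybu (7.94), tshr (6.84) and zgc:111992 (9.15). Ovary 3 stood apart in frmd5 (5.83), mob1bb (13) and nme5 (9.08). Ovary 4 stood apart in si:ch211-14a17.6 (12.83), vasa (12.78), zpcx (14.34), zte25 (7.69) and the leukocyte list mean (8.49).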

How the results depend on the processing

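The counts of rows called between control testes and control ovaries stayed within 1.5 times under all alternatives tried, and with a replicate block they were 7938 higher and 7729 lower. Leaving out single arrays gave 8643 to 9368 higher and 9132 to 9637 lower rows. Centring arrays on their median moved the median difference of all rows between control testes and control ovaries to -0.17, and no result recomputed under it reversed. With a minimum difference of 1 in place of 2, 14.3% of testis-raised rows lay between and 7.14% at ovary level, and 17.8% of ovary-raised rows lay between and 3.95% at ovary level. With a minimum of 4, testis-raised rows were 25.6% at testis level, 36.8% between and 0.497% at ovary level, and ovary-raised rows 5.33% at testis level and 70.7% between. With ranges of the mean ± 2 SD, 13.9% of testis-raised rows lay between and 8.09% at ovary level, and 22.4% and 5.54% of ovary-raised rows. On the linear scale the mean median positions were 0.622 for testis-raised rows, 0.448 for Sertoli, 0.712 for Leydig, 0.665 for meiosis, 0.705 for sperm and 0.733 for axoneme members. They were 0.909 for ovary-raised rows, 0.303 for egg coat, 0.802 for oocyte and 0.908 for germ cell members. A minimum of 1 gave 0.824 for testis-raised rows, 0.803 for ovary-raised rows, 0.49 for oocyte and 0.787 for germ cell members. A minimum of 4 gave 0.89, 0.93 for sperm, 0.946 for axoneme, 0.485 for ovary-raised rows and 0.563 for germ cell members, and left too few Sertoli members for a value. A margin of 0.5 gave 34 rows above and 18 below all control gonads, a margin of 2 gave 1 and 0, and adding the heat testes gave 1 and 0.

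Leaving out each array in turn, testis-raised rows were 37.9% to 59.1% at testis level, 22.1% to 36.7% between and 1.65% to 6.09% at ovary level. Ovary-raised rows were 34.4% to 57.7%, 32.5% to 53% and 1.78% to 4.55%. Median positions ran from 0.849 to 0.855 (testis-raised), 0.584 to 0.859 (Sertoli), 0.897 to 0.919 (Leydig), 0.836 to 0.924 (meiosis), 0.903 to 0.914 (sperm) and 0.905 to 0.92 (axoneme). They ran from 0.672 to 0.786 (ovary-raised), 0.0767 to 0.101 (egg coat), 0.356 to 0.531 (oocyte) and 0.519 to 0.809 (germ cell). Rows above all controls numbered 7 to 487 and below 2 to 64. The highest ovary-raised shares and the highest of both counts came from leaving out 1 masculinized ovary. With 2 arrays chosen by readout, no spread between masculinized ovaries can be tested.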

Other observations

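Cell cycle and DNA methylation or chromatin lists were not part of the comparisons above. Of 48 cell cycle members found, 9 were higher in control testes and 22 in control ovaries. The 7 ovary-raised members had median positions of 0.82 in masculinized ovary 2 and 0.52 in masculinized ovary 4, and the 3 testis-raised members 0.83 and 0.92. Of 29 members of the DNA methylation and chromatin list found, 4 were higher in control testes and 17 in control ovaries, and the 6 ovary-raised members had median positions of 1.1 and 0.78. The heat shock list mean was 10.87 and 10.97 in the masculinized ovaries, 10.83 to 11.38 in control testes and 10.50 to 10.56 in control ovaries. Of its 29 members found, 12 were higher in control testes and 9 in control ovaries.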
